A study of Mus musculus with 6 samples.

Results

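Cytochrome P450 (P450) genes were examined in activated mouse B cells with and without the aryl hydrocarbon receptor (AhR). Members were all rows of the count table whose symbol is Cyp followed by a family number, with or without a subfamily letter and a gene number. This gave 92 of the 23420 genes in the table. Another 10 rows whose symbol starts with Cyp and a number, such as pseudogenes and genes with a longer suffix, did not match this pattern, and 1 of them had enough counts to be tested.

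The libraries were made from splenic B cells of 3 Ahr+/+ and 3 Ahr-/- mice on the C57Bl/6J background. The Ahr-/- line carried a germline null allele (Ahr tm1Bra), so every cell of the animal lacked AhR from the start of life. All cells of both genotypes were kept for 8 h in IMDM medium with 5% FCS, 10 µg/ml anti-IgM, which engages the B-cell receptor, and 20 ng/ml IL-4. All of them also received 250 nM FICZ, a tryptophan photoproduct that binds AhR, in the last 4 h. No culture without FICZ was part of the comparison, so activation and ligand are present on both sides of each difference.

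P450 enzymes are haem proteins that use electrons from a reductase to insert oxygen into their substrates. Some families act on foreign chemicals, mainly in the liver, and others carry out single steps in the metabolism of cholesterol, steroid hormones, vitamin D, retinoic acid or fatty acids. AhR is a ligand-activated transcription factor that enters the nucleus, pairs with ARNT and binds DNA elements with the core GCGTG. Members of P450 family 1 are its best known target genes, and CYP1A1 in turn breaks down FICZ.

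Total counts lay between 22095096, in Ahr-/- replicate 1, and 53648787, in Ahr-/- replicate 2. A floor of 3 counts corresponded to between 2.13 and 5.15 normalized counts in these libraries, where a normalized count is a count divided by the library's TMM-scaled size relative to the mean of the 6. This floor covers counting error only. Ahr itself was listed with 13175.4 ± 681.6 normalized counts (SD, n = 3) in Ahr+/+ cells and 9174.0 ± 472.4 (SD, n = 3) in Ahr-/- cells (log2 fold change −0.52, standard error 0.0475, edgeR adjusted p = 7.1e-06). These are gene totals, with no value per exon, so they do not check the deletion. The B-cell list was present in every library, with a summed level of 101970.1 to 106996.4 normalized counts in Ahr+/+ and 119598.2 to 126898.5 in Ahr-/- cells. At an edgeR adjusted p under 0.05, 5 of its 9 markers were called higher and 1 lower, against 9.79% and 8.13% of all tested genes.

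Most P450 genes were not detected in these B cells. No read was counted in any of the 6 libraries for 55 of the 92 genes, and 18 had between 1 and 9 counts in all. At least 10 counts over the 6 libraries, the minimum for testing, were reached by 19 members, or 20.7%, against 58.4% of all genes in the table. Of these, 16 had more than 3 counts in every library. Because the minimum applied to the sum of both genotypes, a gene present in only 1 genotype could pass it.

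Whole groups of members had no reads or very few. All 4 Cyp2a and all 5 Cyp2b genes, classical liver enzymes of drug metabolism, had no counts. Among the 15 Cyp2c genes 1 had any count, and it had 1. Of the 7 Cyp3a genes, another drug-metabolizing group, 2 had counts and neither had more than 1. Cyp7a1 and Cyp8b1, which act in bile acid synthesis, had none. Nor did Cyp11b1, Cyp11b2, Cyp17a1 or Cyp19a1, which make glucocorticoids, mineralocorticoids, androgens and oestrogens. Cyp24a1, which inactivates vitamin D, was also at 0. Of 6 hepatocyte markers, Ttr and Fgb were at 0 in every library, and Alb and Apoa1 had no more than 3 reads in any. Serpina1a, at 14.4 and 7.26 normalized counts in Ahr+/+ and Ahr-/- libraries, and Apoh, at 4.50 and 3.82, were tested and not called.

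**Figure D1:**
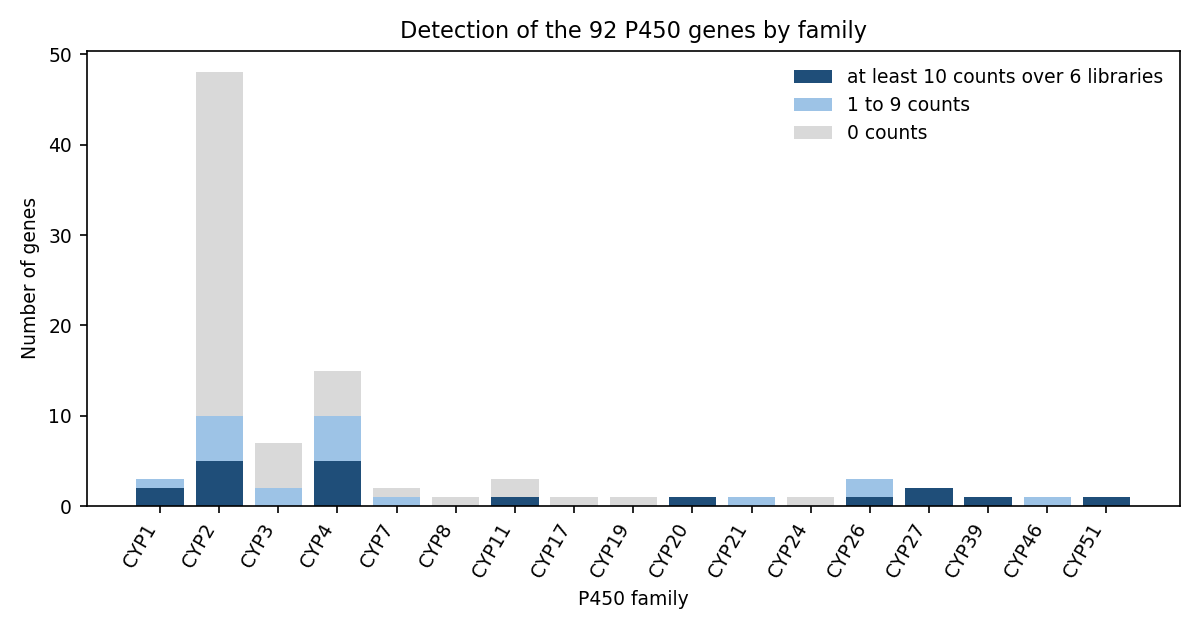
Number of P450 genes per family (bars), split by total count into 10 or more (dark), 1 to 9 (light) and 0 (grey). Family CYP2, with 48 genes, had 5 that reached the minimum, whereas both CYP27 genes and the lone members of CYP20, CYP39 and CYP51 did. The lone members of CYP8, CYP17, CYP19, CYP21, CYP24 and CYP46 did not.

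In levels per length (CPM, which corrects each library for its depth, per kb of merged exons), the P450 RNA of Ahr+/+ cells was dominated by Cyp51 and Cyp1a1. Cyp51 stood at 80.9 ± 3.31 (SD, n = 3) and Cyp1a1 at 49.0 ± 2.26 (SD, n = 3). Cyp20a1 followed at a level of 14.9, Cyp4f13 at 6.31, Cyp4v3 at 2.84, Cyp2r1 at 2.07, Cyp1b1 at 1.15 and Cyp4f18 at 1.02. The other 11 tested members had mean levels between 0.0257, for Cyp26a1, and 0.553, for Cyp4f16. In Ahr-/- cells Cyp51 was still at the top, with a level of 72.9 ± 3.10 (SD, n = 3), whereas Cyp1a1 moved from rank 2 to rank 16 of the 19. Counted as a share of all P450 reads, Cyp1a1 took between 24.3% and 27.4% in the Ahr+/+ libraries and between 0.0205% and 0.049% in the Ahr-/- libraries. The sum of all P450 normalized counts lay between 19821.7 and 20565.6 in Ahr+/+ and between 13032.0 and 14016.8 in Ahr-/- cells.

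**Figure D2:**
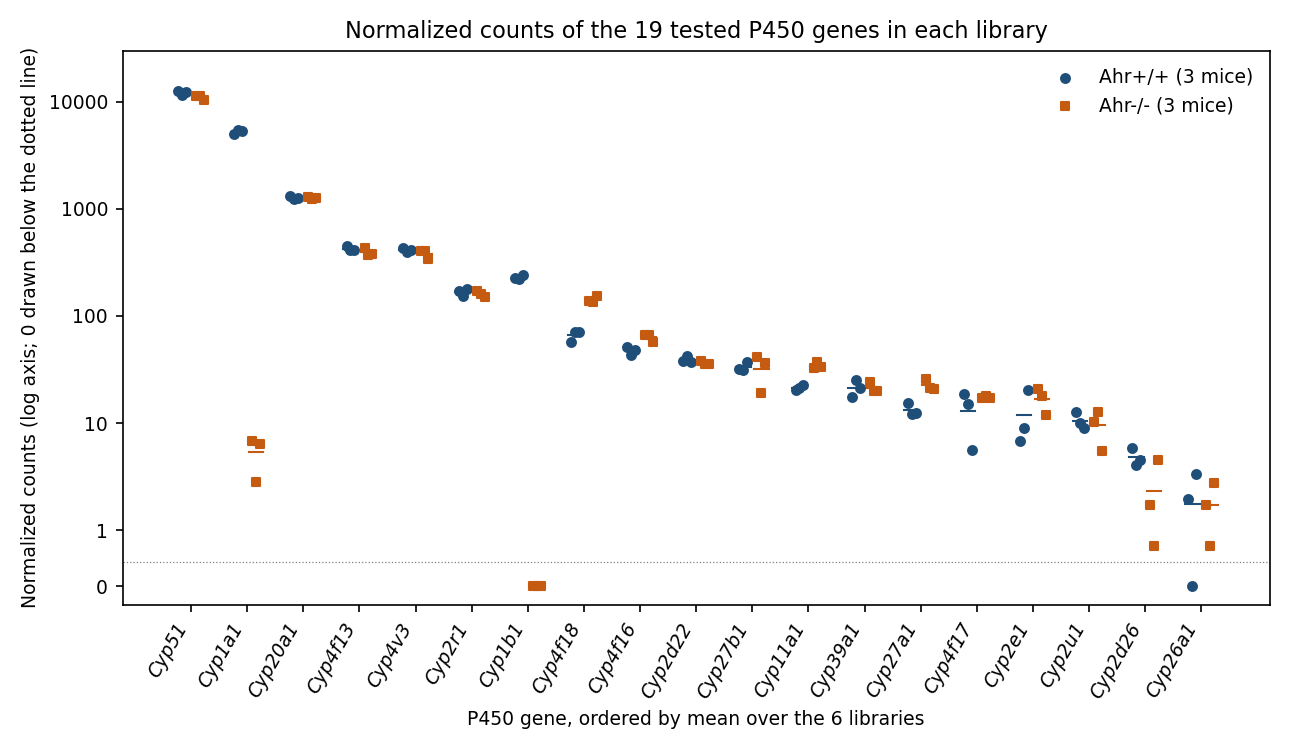
Normalized counts (log axis) of the 19 tested P450 genes in each Ahr+/+ library (circles) and each Ahr-/- library (squares), with horizontal lines for the genotype means. The genotypes are far apart for Cyp1a1 and Cyp1b1, whose Ahr-/- points lie under 10 or at 0, and close together for most other genes.

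Dependence on Ahr was then tested by comparing the genotypes over all genes with edgeR's quasi-likelihood test. At an adjusted p under 0.05, 3 of the 19 tested P450 genes passed as lower without AhR and 2 as higher. The lower genes were Cyp1a1, Cyp1b1 and Cyp51, and the higher genes were Cyp4f18 and Cyp11a1. Over all 13682 tested genes 17.9% were called, 8.13% lower and 9.79% higher, so 5 of 19 members (26.3%) is not far from the background share. The median log2 fold change of the tested members was −0.08, against 0.00 over all genes, and their median absolute log2 fold change was 0.15, against 0.11. The changes in Cyp1a1 and Cyp1b1 were the largest among the members.

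CYP1A1, CYP1A2 and CYP1B1 hydroxylate polycyclic aromatic compounds, and CYP1A1 also metabolizes FICZ. Cyp1a1 lies on chromosome 9 (57687928 to 57703824 in the GENCODE annotation of GRCm38, plus strand). Its normalized counts were 4973.2, 5437.1 and 5326.7 in Ahr+/+ replicates 1, 2 and 3. They were 6.87, 2.84 and 6.38 in the Ahr-/- replicates, where 4, 4 and 7 reads were found. The Ahr+/+ values were high and close together, and each Ahr-/- library held fewer than 10 reads. The means were 5245.7 ± 242.3 (SD, n = 3) and 5.36 ± 2.20 (SD, n = 3), a 978-fold difference. The log2 fold change was −10.04 (standard error 0.11, edgeR adjusted p = 1.6e-14). A two-sided exact permutation test over the 6 libraries gave p = 0.1, the smallest that 3 mice against 3 allow, here and for every other gene without overlap.

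Cyp1b1 lies on chromosome 17 (79701537 to 79715061 in the same annotation, minus strand). Its normalized counts were 226.3, 222.4 and 239.2 in the 3 Ahr+/+ mice, and no read was found in any Ahr-/- mouse. The genotypes did not overlap. Against a floor of 3 counts per library, Cyp1b1 was at least 68.7-fold lower in Ahr-/- cells (edgeR adjusted p = 1.2e-08). The reads of Cyp1a1 outnumbered those of Cyp1b1 22 to 24.5 times in the 3 Ahr+/+ mice, a ratio that differed little between them.

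Cyp1a2, the liver member of the family, lies beside Cyp1a1 on chromosome 9 (57676937 to 57683703, minus strand). The 3 Ahr+/+ libraries had 1, 2 and 3 reads of it, and the Ahr-/- libraries had none. Its 6 reads in all were below the minimum of 10, so it was not tested, and no fold is given because both genotypes were at or under the floor. The RefSeq starts of both genes are 13958 bases apart, on opposite strands, and the GENCODE model of Cyp1a1, which begins further upstream than its RefSeq start, lies 4225 bases from that of Cyp1a2. Of these neighbours, Cyp1a1 gave between 4743 and 5404 reads per Ahr+/+ library and Cyp1a2 no more than 3.

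The sequences before these 3 starts are shown because family 1 holds the members with the largest difference between genotypes, beside Cyp1a2, which was hardly detected. Each is the 250 bases before the RefSeq start on GRCm38.p6, written 5′ to 3′ on the strand of the gene, with the AhR core GCGTG, or CACGC where the core is on the other strand, in capitals. The windows are chr9:57697363-57697612 (plus strand) for Cyp1a1, chr9:57683656-57683905 (minus strand) for Cyp1a2 and chr17:79715062-79715311 (minus strand) for Cyp1b1.
Cyp1a1: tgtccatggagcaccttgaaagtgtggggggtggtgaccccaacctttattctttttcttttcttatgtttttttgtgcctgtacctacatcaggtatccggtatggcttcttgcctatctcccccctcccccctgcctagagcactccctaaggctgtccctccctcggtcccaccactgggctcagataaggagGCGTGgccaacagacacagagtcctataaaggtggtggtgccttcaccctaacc
Cyp1b1: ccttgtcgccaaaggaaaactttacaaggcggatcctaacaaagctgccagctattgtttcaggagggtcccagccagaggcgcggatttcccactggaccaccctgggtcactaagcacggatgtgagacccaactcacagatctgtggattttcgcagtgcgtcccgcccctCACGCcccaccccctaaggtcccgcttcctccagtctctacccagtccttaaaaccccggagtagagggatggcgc
Cyp1a2: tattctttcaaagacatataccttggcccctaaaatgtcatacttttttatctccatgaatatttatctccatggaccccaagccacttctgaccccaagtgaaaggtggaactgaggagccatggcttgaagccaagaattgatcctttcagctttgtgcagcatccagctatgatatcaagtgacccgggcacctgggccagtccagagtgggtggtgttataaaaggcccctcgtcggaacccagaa

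The motif searched was the 5 letters GCGTG on both strands, in windows of 250 bases before to 50 bases after each RefSeq start. Cyp1a1 held 1 match, which began 54 bases before the start, and Cyp1b1 held 1, which began 76 bases before the start on the other strand. Cyp1a2 held none. So short a motif is common, with a match in 32.4% of all 32851 windows and in 49.0% of the windows of tested genes. Among tested P450 genes with a window, 7 of 15 held it, including Cyp20a1, Cyp2r1, Cyp4f16, Cyp4v3 and Cyp51, of which Cyp51 alone was called. The windows of Cyp4f18 and Cyp11a1 had no match. A match is a description of the letters in this window and not a binding site.

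Genes around Cyp1a1 were read from the same fit. Within 100 kb, 9 genes were in the table and 7 were tested. Edc3, an mRNA decapping factor whose gene begins 4716 bases downstream of Cyp1a1, had 3535.4 ± 103.3 normalized counts (SD, n = 3) in Ahr+/+ and 2213.7 ± 134.9 (SD, n = 3) in Ahr-/- cells. Its log2 fold change was −0.67 (standard error 0.047, edgeR adjusted p = 6.9e-07). Ulk3, a kinase gene 91.7 kb upstream, fell by 0.27 on the log2 scale (edgeR adjusted p = 0.00328). Csk, a kinase that restrains B-cell receptor signalling and lies between Ulk3 and Cyp1a2, had 12119.5 ± 555.5 and 12026.7 ± 476.1 normalized counts (SD, n = 3 each) and was not called (edgeR adjusted p = 0.902). Around Cyp1b1, Cyp51 and Cyp11a1 no tested gene within the same distance was called, and around Cyp4f18 1 of 4 was, Zfp617, which fell by 0.21 on the log2 scale (edgeR adjusted p = 0.0178).

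**Figure D3:**
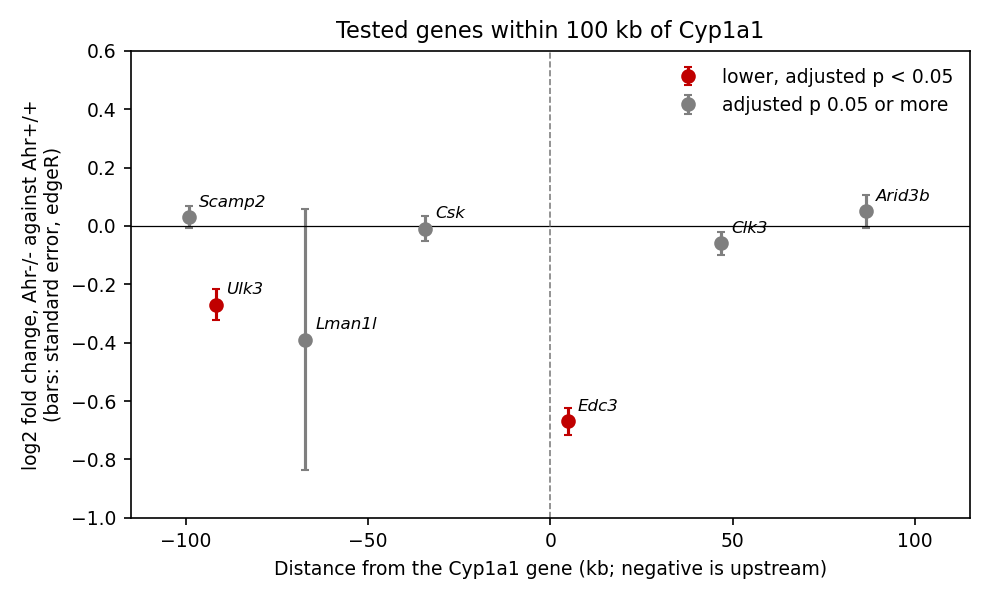
Log2 fold change of Ahr-/- against Ahr+/+ cells (points, with edgeR standard errors) for the 7 tested genes within 100 kb of Cyp1a1, against their distance from it in kb. Edc3 and Ulk3 were lower at an adjusted p under 0.05, and the 5 other genes were not called.

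Cyp51 encodes lanosterol 14-alpha-demethylase, a step of cholesterol synthesis, and was the most abundant P450 transcript in both genotypes. It lies on chromosome 5 (4081145 to 4104746, minus strand) and overlaps Akap9 on the other strand at its 3′ end. Its normalized counts were 12602.9, 11663.0 and 12427.9 in the Ahr+/+ mice, against 11282.8, 11297.8 and 10478.1 in the Ahr-/- mice. Every Ahr-/- library was below every Ahr+/+ library, by a small margin. The log2 fold change was −0.15 (standard error 0.043, edgeR adjusted p = 0.0288). The call was lost when libraries were scaled by size alone (adjusted p = 0.0673) and on leaving out Ahr+/+ replicate 1 (0.113), Ahr+/+ replicate 3 (0.106), Ahr-/- replicate 2 (0.0508) or Ahr-/- replicate 3 (0.0649). Of the 17 other genes of cholesterol synthesis tested, 2 were lower and none was higher, against 8.13% lower and 9.79% higher over all tested genes. The 2 were Hmgcs1, which acts at the entry of the pathway, and Idi1, an isomerase before squalene. They fell by 0.15 and 0.19 on the log2 scale (edgeR adjusted p = 0.0345 and 0.0226).

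Cyp4f18 was the member with the lowest adjusted p among those that rose. The enzyme hydroxylates leukotriene B4, a chemoattractant of neutrophils. The gene lies on chromosome 8 (71988482 to 72009626, minus strand) and overlaps Zfp961 on the opposite side of the DNA. The sources used here do not say if counting was strand-specific, so reads in such overlaps cannot be assigned with certainty. In normalized counts, the Ahr+/+ mice gave 57.3, 71.4 and 70.8, and the Ahr-/- mice gave 137.3, 134.4 and 154.1. The genotypes were well separated, with means of 66.5 ± 7.97 and 141.9 ± 10.6 (SD, n = 3 each), a 2.13-fold difference. The log2 fold change was 1.10 (standard error 0.145, edgeR adjusted p = 1.7e-04). Zfp961, the gene it overlaps, had a log2 fold change of 0.01 (edgeR adjusted p = 0.925).

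Cyp11a1 encodes the side-chain cleavage enzyme that turns cholesterol into pregnenolone, the entry to steroid hormone synthesis. It lies on chromosome 9 (58006411 to 58027023, plus strand). In normalized counts, the Ahr+/+ mice gave 20.4, 21.1 and 22.5 and the Ahr-/- mice 32.6, 37.0 and 33.7. The values did not overlap, but they rested on between 19 and 52 reads per library. The difference was 1.61-fold, and the log2 fold change was 0.70 (standard error 0.224, edgeR adjusted p = 0.0483). The call lay at the threshold and was lost with DESeq2 (adjusted p = 0.236), with no filter on low counts (0.0611), and on leaving out any single library of the 6 (0.0718 to 0.186). The other steroid hormone P450 genes gave no more than the 2 reads of Cyp21a1.

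Cyp27a1 and Cyp4f16 were also higher in all Ahr-/- libraries than in all Ahr+/+ libraries without being called. Cyp27a1, a mitochondrial sterol hydroxylase, gave 15.5, 12.1 and 12.4 normalized counts in the Ahr+/+ mice against 25.7, 21.3 and 21.0, with a log2 fold change of 0.73 (edgeR adjusted p = 0.101). Cyp4f16 had 51.5, 43.3 and 48.3 against 66.9, 66.8 and 57.4, with a log2 fold change of 0.41 (edgeR adjusted p = 0.136). Values without overlap were found for 7 of the 19 tested P450 genes in all, and for 33.5% of all tested genes.

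**Figure D4:**
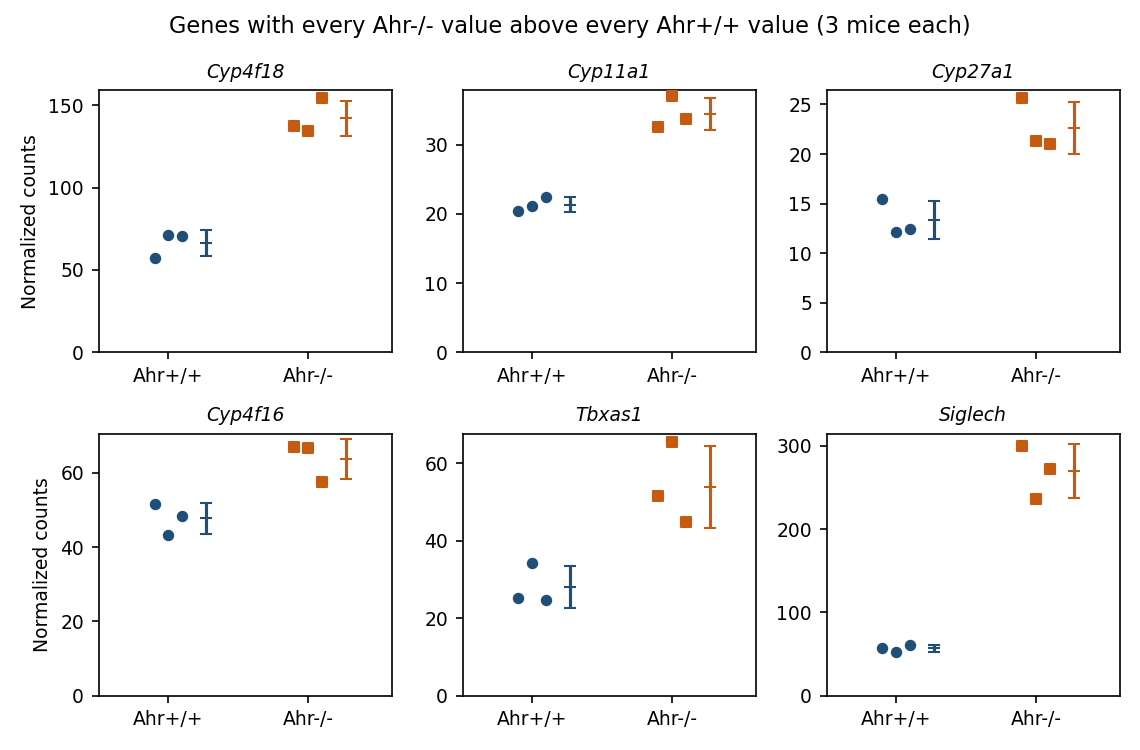
Normalized counts in each Ahr+/+ (circles) and Ahr-/- (squares) library, with mean and SD beside them, for 4 P450 genes of the Cyp family, for the P450 gene Tbxas1 and for the plasmacytoid dendritic cell marker Siglech. All 3 Ahr-/- values lie above all Ahr+/+ values in each panel, and the step is largest for Siglech.

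A P450 enzyme without a Cyp symbol moved the same way. Tbxas1, thromboxane synthase, gave 25.3, 34.2 and 24.7 normalized counts in the Ahr+/+ mice against 51.5, 65.4 and 44.7 in the Ahr-/- mice. Its log2 fold change was 0.95 (standard error 0.231, edgeR adjusted p = 0.0123). Ptgis, prostacyclin synthase, had no counts.

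Some markers of dendritic and NK cells were called higher in Ahr-/- cells, as were Cyp4f18, Cyp11a1 and Tbxas1. For comparison, 9.79% of all tested genes were called higher and 8.13% lower, and of 9 B-cell markers 5 were higher and 1 lower. Of 10 plasmacytoid dendritic cell markers, 7 were called higher and 1 lower, and their summed level was 43897.1 to 46512.2 normalized counts in Ahr+/+ and 48572.4 to 50569.0 in Ahr-/- libraries. Most of this sum came from Irf8, Spib and Tcf4, which B cells also express. Irf8 went from 23189.9 to 29386.8 normalized counts and was called higher, Tcf4 went from 7537.1 to 4680.4 and was the lower gene, and Spib, at 10483.8 and 10531.5, and Bst2, at 2126.9 and 2497.8, were not called. Siglech, which is largely restricted to these cells, went from 56.8 ± 4.19 to 269.7 ± 32.3 normalized counts (SD, n = 3 each). Of 9 conventional dendritic cell markers, 5 were higher and 1 lower, with sums of 1950.4 to 2297.0 and 2418.9 to 2685.7. Clec9a rose by 1.86 and Cd209a by 2.52 on the log2 scale, and Zbtb46 fell by 0.40. Xcr1, a marker of the same subset as Clec9a, and Flt3 had log2 fold changes of −0.26 and −0.20 and were not called. Of 11 tested macrophage and monocyte markers 1 was higher and 1 lower, with sums of 1272.4 to 1681.2 and 756.8 to 1335.0. The lower marker was Emr1, at 649.7 ± 14.7 and 54.1 ± 16.1 normalized counts (SD, n = 3 each), and without it the sums were 618.7 to 1019.2 and 721.2 to 1271.7. Of 9 neutrophil markers none was called, with sums of 179.7 to 432.6 and 191.5 to 640.5. Of 7 NK cell markers 3 were higher, Ncr1, Klrb1c and Gzmb, and 4 were not called, with sums of 369.1 to 443.7 and 472.3 to 732.2. Of 9 T-cell markers 1 was higher and 1 lower, and none of 3 erythroid markers was called. No marker of either dendritic cell list was without counts. The part of these cells in the higher values of Cyp4f18, Cyp11a1, Tbxas1, Aldh1a2 and Nr1h3 was not tested. In such bulk libraries, a change in the number of cells of a type and a change in RNA per cell cannot be told apart.

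The remaining tested members were not called. Cyp20a1, an orphan enzyme with no settled substrate, stood at 1270.8 ± 37.4 normalized counts with AhR and 1268.4 ± 22.1 without it (SD, n = 3 each). Its log2 fold change was −0.01 (edgeR adjusted p = 0.956). Cyp4v3, a fatty acid hydroxylase, had 416.4 ± 18.9 and 382.5 ± 36.8 normalized counts, and Cyp4f13 had 425.4 ± 22.8 and 395.3 ± 34.3, with log2 fold changes of −0.13 and −0.12. Standard errors of the log2 fold change were 0.0808 for Cyp4f13 and 0.113 for the less abundant Cyp2r1.

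Of the 3 vitamin D enzymes, Cyp2r1 and Cyp27b1 were tested, and neither was called. Cyp2r1, which starts the activation of vitamin D, had 168.1 ± 11.7 and 160.1 ± 9.73 normalized counts (SD, n = 3 each), and its log2 fold change was −0.08. Cyp27b1, which makes the active hormone, had 33.4 ± 3.17 and 32.3 ± 11.6 normalized counts, with a log2 fold change of −0.12. The Ahr-/- libraries of Cyp27b1 ranged from 19.2 to 41.2, on both sides of the Ahr+/+ values.

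Low members were compared with little precision. Cyp2d22 stood at 39.1 and 36.3 normalized counts in the 2 genotypes, Ahr+/+ first. Cyp39a1, an oxysterol hydroxylase, had 21.3 in both. Cyp4f17, Cyp2e1 and Cyp2u1 had means between 9.52 and 17.4 in either genotype, and their genotypes overlapped. Cyp2d26 had the lowest log2 fold change among genes not called, −1.03, but rested on 21 reads in all and was not called (edgeR adjusted p = 0.341). This value ran from −0.43 without Ahr-/- replicate 2 to −2.12 without Ahr-/- replicate 3 (edgeR adjusted p = 0.77 and 0.0976).

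The retinoic acid hydroxylases were at the limit of detection. Cyp26a1 had 10 reads over the 6 libraries, Cyp26c1 6 and Cyp26b1 4. Cyp26a1 alone reached the minimum for testing, and it was not called (edgeR adjusted p = 0.969). Of 9 other tested genes of retinoid handling, 1 was lower, 3 were higher and 5 were not called, against 17.9% called over all tested genes. Rara, the retinoic acid receptor alpha, went from 5115.3 ± 193.4 to 2384.4 ± 256.2 normalized counts (SD, n = 3 each), a log2 fold change of −1.10 (edgeR adjusted p = 1.2e-07). It was the 1 lower gene of the 9 tested in that list. Aldh1a2, which makes retinoic acid, Crabp2, a binding protein, and Dhrs3, a retinal reductase, were the 3 higher genes, with log2 fold changes of 1.53, 0.69 and 0.30. Aldh1a2, at 21.5 ± 4.66 and 63.4 ± 14.0 normalized counts, is also made by dendritic cells, whose part in its level was not tested.

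The oxysterol route that makes the ligand of GPR183, the receptor that guides B cells in the follicle, was hardly detected at its P450 step. Cyp7b1 had 8 reads in all, 6 of them in Ahr-/- replicate 2, and Ch25h, which acts before it, had 1. Hsd3b7, which removes the ligand, had 153.9 and 165.9 normalized counts and was not called (edgeR adjusted p = 0.612).

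Among Cyp4f genes, a cluster of close paralogs, reads may be split between copies, so their values are uncertain. All 8 had at least 1 count, 4 were tested and 1, Cyp4f18, which lies on another chromosome than Cyp4f13, Cyp4f16 and Cyp4f17, was called.

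**Figure D5:**
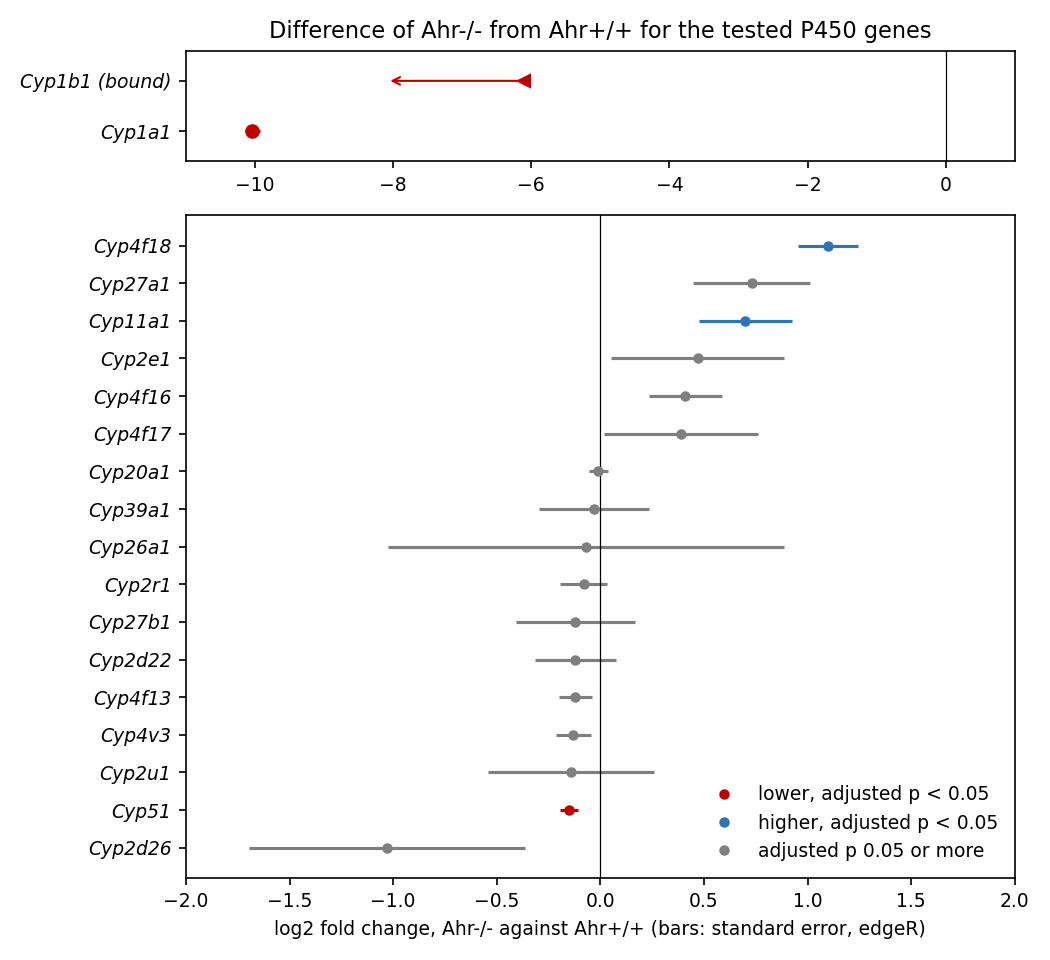
Log2 fold change of Ahr-/- against Ahr+/+ cells for the tested P450 genes (points, with edgeR standard errors), with Cyp1a1 and Cyp1b1 on a wider axis above. Cyp1b1, with no reads in Ahr-/- cells, is drawn as a bound at 68.7-fold with an arrow, and the other 17 genes lie between −1.03 and 1.10.

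Genes for the partners that P450 enzymes need were mostly not called. Por, the reductase that feeds electrons to the microsomal enzymes, CYP1A1 and CYP1B1 among them, had 2637.0 ± 147.0 and 2678.0 ± 101.3 normalized counts (SD, n = 3 each; edgeR adjusted p = 0.784). Of the 10 tested electron transfer partners 2 were lower, Cyb5r1 and Cyb5r3, by 0.18 and 0.17 on the log2 scale, and none was higher. The share called over all tested genes was 17.9%, so 2 of 10 is near the background. In the mitochondrial chain, Fdxr, which serves enzymes such as CYP11A1 and CYP27A1, was not called (edgeR adjusted p = 0.296).

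Haem synthesis differed at 1 step by a wide margin. Cpox, coproporphyrinogen oxidase, gave 4507.9, 4946.1 and 4922.4 normalized counts in the Ahr+/+ mice against 1455.4, 1445.2 and 1325.7 in the Ahr-/- mice. The genotypes were far apart, and the log2 fold change was −1.77 (standard error 0.051, edgeR adjusted p = 1.6e-10). Among the 12 haem genes, Hmox2 was also lower, by 0.14, and Alas1, the first enzyme of the pathway, was higher by 0.16 on the log2 scale. The other 9 were not called.

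Other genes of the AhR pathway were read beside family 1. Of 11 tested genes of the AhR pathway, a list chosen for this receptor and so not independent evidence of a direction, 7 were lower and none was higher. The 7 were Ahr itself, the chaperones Hsp90aa1, Hsp90ab1 and Ptges3, and the target genes Tiparp, Nqo1 and Ahrr. Tiparp, an ADP-ribosyltransferase that acts back on AhR, fell by 4.31 and Nqo1, a quinone reductase, fell by 4.53 on the log2 scale (edgeR adjusted p = 1.6e-14 and 7.6e-12). Ahrr, the AhR repressor, gave 302.1, 321.0 and 365.0 normalized counts in the Ahr+/+ mice, and 2, 3 and 0 reads in the Ahr-/- mice. Among other target genes, Xdh and Ugt1a7c had log2 fold changes of 0.45 and −0.23 and were not called, and Aldh3a1, Ugt1a6a, Ugt1a6b, Gsta1 and Gsta2 had too few reads to test. Arnt, the partner of AhR, had 2522.8 ± 59.0 and 2385.1 ± 150.8 normalized counts (SD, n = 3 each) and was not called (edgeR adjusted p = 0.302). Tiparp and Nqo1 kept a level well above the floor without AhR, at 1218.0 ± 60.9 and 53.8 ± 9.82 normalized counts (SD, n = 3 each).

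Of 13 nuclear receptors that regulate P450 genes, 6 had no counts, including Nr1i3, Nr1h4 and Hnf4a, and 6 were tested. The oxysterol receptor Nr1h2, at 5599.6 ± 138.6 and 5405.0 ± 53.9 normalized counts (SD, n = 3 each), and the partner receptors Rxrb, at 4144.5 and 4260.0, and Rxra, at 383.1 and 364.4, were expressed and not called. Of the 6, Nr1h3, another oxysterol receptor, was the 1 called, and it was higher, with 8.74, 13.1 and 7.86 normalized counts in the Ahr+/+ mice against 41.2, 32.7 and 13.7 (log2 fold change 1.48, edgeR adjusted p = 0.0272). Vdr, the vitamin D receptor, had 5.38 ± 2.93 and 12.7 ± 3.57 normalized counts (SD, n = 3 each; edgeR adjusted p = 0.0664). The only P450 gene annotated on chromosome 12, which carries Ahr and its flanking DNA, was Cyp46a1, 72.8 Mb away and with 2 reads in all, so no tested P450 gene shares that chromosome with Ahr.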

How the data were processed

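RNA from 6 cultures of splenic B cells, 3 Ahr+/+ and 3 Ahr-/-, had been sequenced from stranded poly(A) libraries. The authors deposited raw counts, the whole number of reads per gene and library. The submitters' processing notes name TopHat2 (version 2), HTSeq, DESeq and the mm10 build. The strand setting of the counting is not given in the sources used here. Their normalized counts and their table of fold changes and p-values were not used. Libraries held 22095096 to 53648787 counts, and reads carried no molecular identifiers. Floors cover counting error only, whereas SDs and edgeR standard errors include differences between replicates.

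A gene entered the test with 10 or more counts in the 6 libraries together, in edgeR 4.0.16 in R 4.3.3 (TMM scaling, glmQLFit, glmQLFTest, genotype only), and p-values were adjusted over all 13682 tested genes by the Benjamini-Hochberg method. A gene was called at an adjusted p under 0.05. Log2 fold changes used a prior count of 0.125. Levels per length used merged exons of the GENCODE annotation of GRCm38, where 90 of the 92 members were found under their symbol and 1 under an older one. RefSeq windows of 250 bases before to 50 after each start (GRCm38.p6) gave the promoters. Replicates of a genotype differed by more than sampling noise (chi-square per degree of freedom 3.96 to 9.24), so none was counted as a duplicate. The scripts were tested on simulated data. DESeq2 1.42.0 was an alternative, as were other scalings, filters, thresholds, a replicate block, another prior count and leaving out each library.

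The members and gene lists were chosen with earlier results of these data known. Genes named with values were the called members, the 12 most abundant members, family 1, members near the minimum that bear on a role, the called genes of each related list (the 3 with the lowest adjusted p where more than 6 were called), the markers of other cells and Ahr. Members and list genes outside this rule, and the neighbours of called members, were named after their values were seen.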

Additional observations from a re-analysis of the deposited data

How the results depend on the processing

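Cyp1a1, Cyp1b1 and Cyp4f18 were called in the same direction under every alternative run, and no called member changed direction. The number of P450 genes called, 5, fell to 3 at an adjusted p under 0.01 and to between 3 and 4 on leaving out 1 library. The number lower stayed at 3 or fell to 2. The number higher, 2, fell to 1 at an adjusted p under 0.01, with no filter, with DESeq2, with the replicate block and on leaving out any library, each time through Cyp11a1. The log2 fold change of Cyp11a1 lay between 0.64 and 0.74 over the alternatives. Cyp51 lost its call at the stricter threshold, with scaling by library size alone and without Ahr+/+ replicate 1 or 3 or Ahr-/- replicate 2 or 3, where its log2 fold change lay between −0.17 and −0.12. The number of genes called in the related lists, 20, was 11 at 0.01 and 12 to 20 on leaving out 1 library, fewest without Ahr+/+ replicate 3. Detected P450 genes numbered 37 at 1 count or more and 17 at 30 or more. Over all genes, calls numbered 2453, 1473 at 0.01 and, on leaving out 1 library, from 1664 without Ahr-/- replicate 2 to 2601 without Ahr-/- replicate 3.

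Deviations of samples that share a replicate number correlated at −0.03, 0.12 and −0.045, so the numbers did not pair the samples. With the replicate block 2304 genes and 4 P450 genes were called, and Cyp11a1 had an adjusted p of 0.0881. Depth limits the members with the fewest reads: Cyp2d26 and Cyp26a1 had standard errors of 0.667 and 0.956 on the log2 scale.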
